A study of Drosophila melanogaster with 6 samples.

Results

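The RNA of wild type Drosophila melanogaster larvae in the first instar, the stage between hatching and the first larval moult, was described by ranking its genes by array signal. The 3 wild type arrays of 6 in the series were used, and the other 3, from Pof mutant larvae, were left aside. For each gene the mean log2 value over the 3 arrays was taken, from its brightest probe set where it had several. Of the 11982 genes ranked, the 300 brightest (2.50%) and the bottom quartile, 2995 genes (25%), are described here.

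Each array carried RNA from 200 whole larvae, with the sex and the tissues given as mixed. The wild type larvae are labelled only Wt, so neither the strain nor the hours since hatching are known. The replicates are stated to be biological. The values are hybridisation signals of Affymetrix probe sets, which are groups of short probes to 1 transcript, on a log2 scale after RMA, a method that corrects background, normalises the arrays to each other and summarises the probes.

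The genes were chosen by the signal that is described, so no test was made. A rank is a rank of signal, and signal also depends on how well each probe set binds. Among the 1094 genes with more than 1 probe set, the brightest and the dimmest set of the same gene differed by a median of 1.70 on the log2 scale (quartiles 0.82 and 3.08), so small distances between genes carry no order. For the 37 genes of the 300 with several probe sets the median was 4.85, and in 12 of them the dimmest set lay at or below the border of the bottom quartile. The ribosomal protein gene RpS29, for example, had sets with means of 14.26, 14.04 and 3.99. The files hold no detection calls, so a dim probe set was not shown to be at background. In RNA of whole larvae, fewer cells of a type and less RNA per cell cannot be told apart.

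A first instar larva hatches, feeds and grows. Its body wall muscles move it, its midgut digests food, its fat body stores nutrients and makes proteins for the haemolymph, and its epidermis secretes the cuticle that is replaced at each moult. Most larval tissues grow by enlarging polyploid cells, while the imaginal discs, the germ line and part of the nervous system keep dividing.

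Replicate 1 stood apart from the other two arrays. Over all non-control probe sets the correlation was 0.980 between replicates 1 and 2, 0.979 between 1 and 3, and 0.998 between 2 and 3, as a description of arrays that share most of their variation between probe sets. The SD of the log2 difference was 0.43 for both pairs with replicate 1 and 0.13 for replicates 2 and 3. A change of over 2-fold separated replicate 1 from the mean of the other two for 303 genes that were higher on it and 13 that were lower. Within the 300, 1 gene was over 2-fold higher on replicate 1, but a gene bright on that array alone has a lower mean and tends to fall outside the 300. The array medians over all probe sets were 6.53, 6.50 and 6.48 for replicates 1, 2 and 3.

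Membership of the 300 was much the same from array to array. The 300 genes brightest by the mean shared 273, 292 and 290 members with the 300 brightest of replicates 1, 2 and 3 alone, and 264 genes (2.20%) were among the 300 on each array. The bottom quartile shared 2894, 2910 and 2892, and 2752 genes (23.0%) were in it on each array. Without replicate 1, the mean of the other two gave 294 of the same 300 genes.

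The 300 means ran from 11.90 to 14.39 with a median of 12.75, against a median of 7.44 over all ranked genes. Their SD over the 3 arrays had a median of 0.08. The bottom quartile ran from 3.56 to 5.73 with a median of 4.99, and its SD also had a median of 0.08. The border of the 300 was no gap: rank 298 was Lk6 at 11.91, rank 299 CG32073 at 11.91 and rank 300 Obp99a at 11.90, while ND-ASHI at rank 301 lay at 11.90 and AnxB9 and Cht9 at 11.89. Within 0.1 of the border lay 53 genes. At the border of the bottom quartile, c(3)G, CG31538, CG10089, Vkor, CycT and CG4691 all had a mean of 5.73, and 361 genes lay within 0.1 of it.

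The brightest ranked genes were those of the cytoplasmic ribosome, the machine that makes proteins. The 16 brightest genes all encoded its subunits, as did 28 of the 40 brightest. RpL15, a protein of the large subunit, was the brightest ranked gene, with 14.36, 14.40 and 14.42 on replicates 1, 2 and 3 (14.39 ± 0.03, SD, n = 3). RpL41, the smallest ribosomal protein, followed with 14.32, 14.36 and 14.45. RpS15 of the small subunit had 14.27, 14.32 and 14.36. The 3 genes held ranks 1 to 3 with no array far from the others. The highest value of any non-control probe set was 14.40 on replicate 1 and 14.42 on replicate 2. Both lie above every ranked gene on those arrays, so a probe set not used in the ranking was brighter there.

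**Figure D1:**
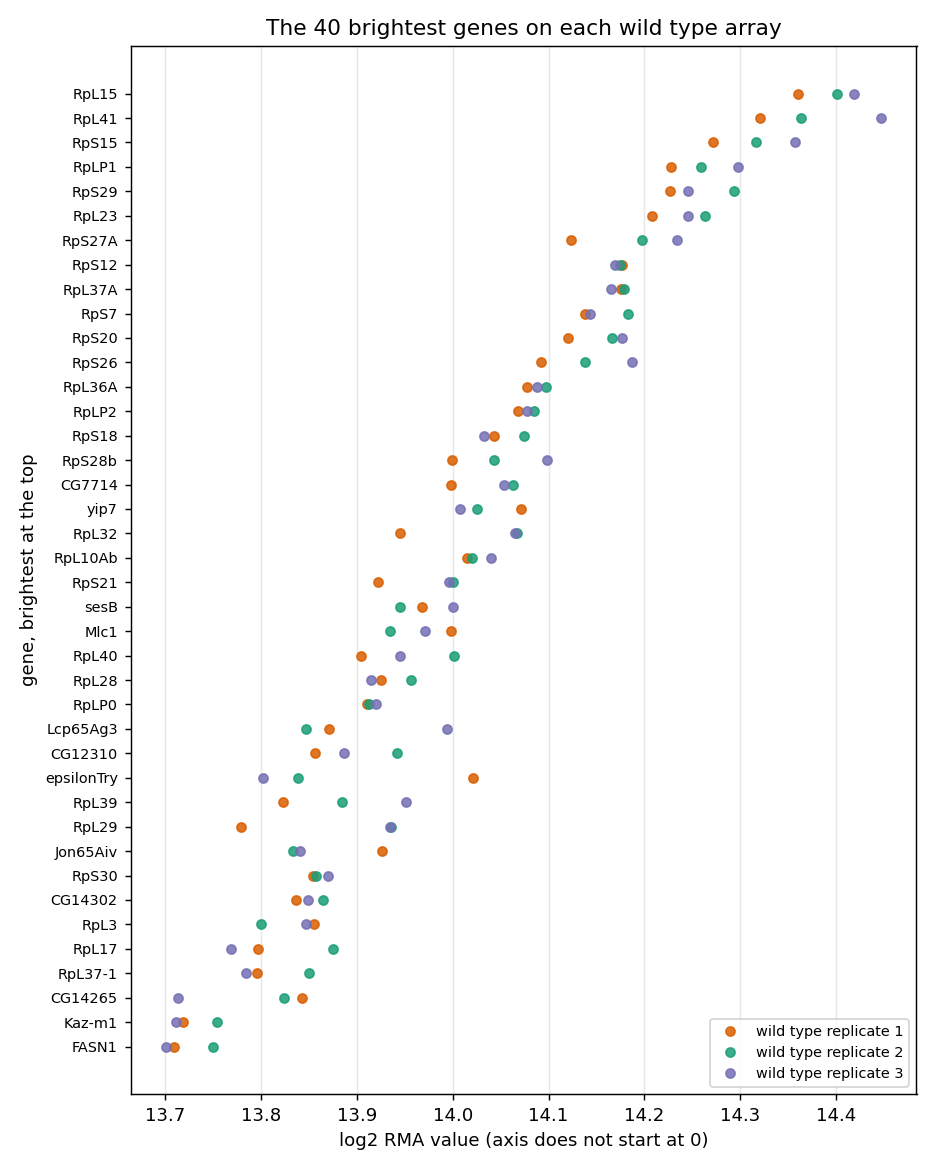
The 40 ranked genes with the highest mean over the wild type arrays, 1 row per gene, with 1 point per array on a log2 RMA axis that does not start at 0. The array values lie between 13.70 and 14.45, and the largest range of a single gene over the 3 arrays is 0.22.

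Of the 40 cytoplasmic ribosomal protein genes that were ranked, 30 were in the 300 and 2 in the bottom quartile. Acidic stalk proteins were among the bright ones: RpLP1 read 14.23, 14.26 and 14.30, and RpLP0, the base of the stalk, 13.91, 13.91 and 13.92. The 5 dimmest members were RpS19b, RpL22-like, RpS10a, RpS28-like and RpL10Aa, each named as a second form of a ribosomal protein. RpL10Aa had 4.80, 4.87 and 4.76, while RpL10Ab had 14.01, 14.02 and 14.04. The arrays placed the named pair at opposite ends of the ranking.

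Factors that drive translation were spread more widely. Of 47 that were ranked, 9 were in the 300 and 6 in the bottom quartile, with a median of 10.42. The elongation factors eEF1alpha1 and eEF2 were not among the ranked genes, so the list lacks them. The brightest of those ranked was eEF5, a factor that helps ribosomes past difficult peptide bonds, with 13.54, 13.64 and 13.66. Next were eEF1gamma, an elongation factor subunit, with 13.42, 13.43 and 13.39, and eIF4A, the helicase that unwinds messenger RNA leaders, with 13.18, 13.30 and 13.28. The fourth, eIF3i, belongs to the initiation complex eIF3 and had 12.39, 12.55 and 12.50. The cap-binding protein eIF4E1 lay just outside the 300, with 11.79, 11.83 and 11.82. Its relatives eIF4E5 (4.31, 4.63 and 4.67) and eIF4E7 (4.15, 4.11 and 4.14) were among the 4 dimmest of the list.

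Genes of oxidative phosphorylation, which makes ATP in mitochondria, formed the other large block. Of 81 measured, 36 were in the 300 and 17 in the bottom quartile, and the median was 11.63. The ADP/ATP carrier sesB, which exchanges nucleotides across the inner membrane, was the brightest with 13.97, 13.94 and 14.00. Within the respiratory chain, ND-MLRQ of complex I had 13.37, 13.53 and 13.52. In the ATP synthase, the alpha and beta subunits of its head, blw (13.42, 13.40 and 13.38) and ATPsynbeta (13.38, 13.37 and 13.31) lay close together.

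The complexes differed in how many members they placed among the 300. Complex IV, cytochrome c oxidase, had 9 of 9 members there once genes whose names end in L, the mark of a like-named copy, were set apart, with means from 12.93 to 13.21. The ATP synthase had 11 of 12, complex III 5 of 7, complex II 1 of 3 and complex I 9 of 27. Of the 22 genes with an L ending, 0 were in the 300 and 15 were in the bottom quartile, and their means ran from 4.17 to 7.09. Apart from these copies, 2 members were in the bottom quartile: ND-B8 of complex I, with 4.15, 4.10 and 4.06, and sun, the epsilon subunit of the ATP synthase, with 4.60, 4.73 and 4.68. ND-B8 was measured by 1 named probe set.

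Genes of the ribosome inside the mitochondrion held the middle of the ranking. All 69 mitochondrial ribosomal protein genes measured lay between the top 300 and the bottom quartile, with means from 8.28 to 11.35 and a median of 9.52. The brightest was mRpL28 with 11.22, 11.45 and 11.37, and the dimmest mRpL11 with 8.08, 8.34 and 8.41. The proteasome, which degrades tagged proteins, also had 0 of 40 members in the 300. Its brightest gene was Prosbeta7, a core subunit, with 10.81, 10.64 and 10.61.

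Among energy and transport genes, 6 of 13 glycolytic genes and 12 of 31 genes of the vacuolar proton pump were in the 300. Gapdh1, an enzyme of the middle of glycolysis, read 13.50, 13.48 and 13.47, Eno (enolase) 13.39, 13.43 and 13.36, and Tpi (triose phosphate isomerase) 13.07, 13.03 and 13.10. Gpdh1, which links glycolysis to lipid synthesis, read 12.86, 13.09 and 13.16. The pump acidifies organelles and energises insect epithelia. Its proteolipid Vha16-1 read 13.63, 13.72 and 13.71 and its stalk subunit Vha26 13.13, 13.19 and 13.21. Of the 22 chaperone genes, 1 was in the 300: Hsc70-4, the constitutive Hsp70 relative, with 13.67, 13.72 and 13.75.

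Together the 9 lists of household functions held 345 genes, of which 94 (27.2%) were in the 300 and 49 (14.2%) in the bottom quartile. Of the 49, 41 were in a table of like-named copies. COX6AL and COX6AL2, whose names also end in L, were not in that table. Nor were the L-ending genes of oxidative phosphorylation that lay outside the bottom quartile. The 13 copies of that list were thus all in the bottom quartile, against 15 of its 22 genes with an L ending. In 48 pairs that match a gene called common with a like-named copy, the common gene lay above its copy on each of the 3 arrays in 48. The pairs, and which member was called common, were entered as a list, so the count describes that choice and tests nothing. Of the pairs, 2 match the larval muscle actin Act87E with other actins. Of the copies 39 (81.2%) were in the bottom quartile, and of the 35 common genes 0 were, while 18 were in the 300. The share of dim copies depends on which copies were entered. Many such copies are known in flies from the testis or the female germ line.

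**Figure D2:**
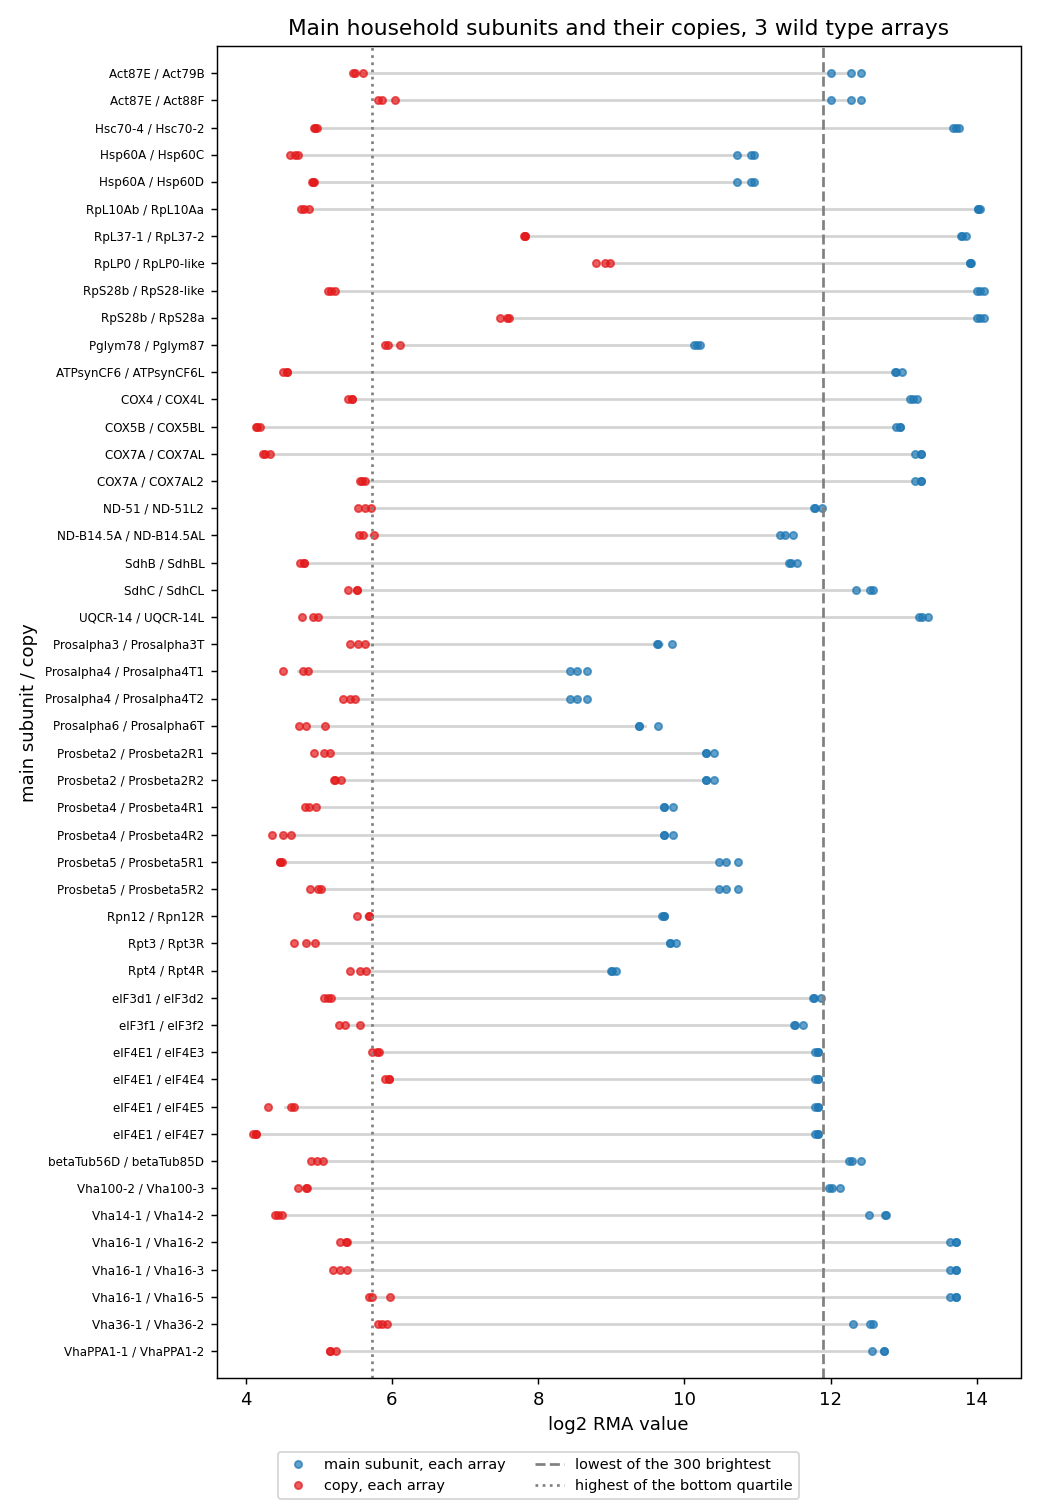
The 48 entered pairs of a gene called common and a like-named copy, 1 row per pair, with the log2 RMA value of each gene on each wild type array as points. The common genes have means from 8.54 to 14.05 and the copies from 4.13 to 8.90.

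In the proteasome list, the copies are those of the same entered list, so their count also describes that choice and tests nothing. All 13 entered copies were in the bottom quartile, with means from 4.48 to 5.64, and the 27 other members, from 6.07 to 10.69, were all above it. Prosbeta5, a catalytic core subunit, read 10.74, 10.57 and 10.47, and its copy Prosbeta5R1 4.47, 4.50 and 4.47. Rpt3, an ATPase of the cap, read 9.89, 9.80 and 9.81, and Rpt3R 4.66, 4.83 and 4.95. In the proton pump, Vha14-1 read 12.52, 12.76 and 12.75 and Vha14-2 4.50, 4.44 and 4.40. Among tubulins, betaTub56D, the widely used beta tubulin, read 12.42, 12.29 and 12.26, and betaTub85D, the beta tubulin of sperm tails, 5.05, 4.97 and 4.89. They form the 1 tubulin pair entered. Tubulins outside the pairs had means of 11.45 (alphaTub85E), 11.28 (betaTub97EF), 9.09 (betaTub60D), 6.61 (gammaTub37C), 5.94 (alphaTub67C) and 5.14 (betaTub65B). A widely used gene can also be dim here: alphaTub84D, a constitutive alpha tubulin that is in none of the 48 pairs, read 4.72, 4.75 and 4.65 and was in the bottom quartile.

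Muscle genes were well represented among the bright genes. Of 26 genes of contraction, 11 (42.3%) were in the 300 and 4 in the bottom quartile. Mlc1, the myosin alkali light chain, read 14.00, 13.94 and 13.97. Mf, the thick filament protein myofilin, read 13.66, 13.72 and 13.61, and Tm2, a tropomyosin, 13.04, 13.02 and 13.01. The muscle LIM protein Mlp60A read 13.49, 13.69 and 13.75. The 4 muscle genes in the bottom quartile were all of the adult or flight muscle list: Act79B, fln (flightin), TpnC41C and TpnC4, whose 3.76, 3.74 and 3.68 placed it among the 10 dimmest of all genes. Mlp60A, also on that list, was the 1 gene of all lists for other stages that reached the 300, and its 2 other probe sets had means of 6.99 and 5.48.

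The actins Act87E, Act88F and Act79B lay in a like order, and other genes of the family, such as Act57B and Act5C, were not ranked. Act87E, an actin of larval muscle, read 12.00, 12.28 and 12.41. Act88F, the actin of indirect flight muscle, read 5.86, 5.81 and 6.04. Act79B, known from adult muscle, read 5.47, 5.60 and 5.50. Act87E lay above both on each array, and it was lowest on replicate 1.

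Digestive serine proteases had 14 of 28 genes in the 300, and 12 without replicate 1, when the muscle list had 12 of 26. The brightest was yip7, a serine protease, at rank 18 with 14.07, 14.03 and 14.01. Next were the trypsin epsilonTry, with 14.02, 13.84 and 13.80, and the Jonah proteases Jon65Aiv, with 13.93, 13.83 and 13.84, and Jon65Aiii, with 13.77, 13.62 and 13.71. Jonah genes, chymotrypsin-like enzymes of the midgut, gave 9 of 13 members, and their lowest mean was 8.92. Jon66Ci was higher on replicate 1 (13.09) than on replicates 2 and 3 (12.16 and 12.14). At the other end, Ser12, Try29F, Ser7 and Ser8 had means in the bottom quartile.

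Other genes of digestion were dimmer as a list, with 2 of 38 in the 300 and a median of 8.54. Both were of the peritrophic matrix, the chitin lining that separates food from the midgut cells. Peritrophin-15a read 13.62, 13.43 and 13.31, and Peritrophin-15b read 12.92, 12.62 and 12.37, highest on replicate 1 in both cases. The cathepsin CtsB read 11.87, 11.93 and 11.89 and the lysozyme LysS 12.11, 11.81 and 11.64. LysX (5.52, 5.45 and 5.42) and LysP (4.54, 4.52 and 4.42), other lysozymes, were the dimmest.

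The fat body and haemolymph list placed 6 of 23 genes in the 300 and 1 in the bottom quartile, with a median of 11.00. FASN1, a fatty acid synthase, read 13.71, 13.75 and 13.70. The ferritin heavy chain Fer1HCH, which carries iron, read 13.21, 13.25 and 13.26 and its light chain partner Fer2LCH 12.87, 12.93 and 12.95. The calcium-binding protein regucalcin read 13.33, 13.14 and 13.07. FASN2, a fatty acid synthase known from oenocytes, was far lower, at rank 7051. Tsf1, an iron carrier of the haemolymph, was uneven, with 8.06, 6.10 and 6.13. Fbp2 was the 1 member in the bottom quartile, with 5.29, 5.17 and 5.18.

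Blood cell and basement membrane genes split. The matrix proteins SPARC (12.61, 12.39 and 12.38), vkg (12.37, 12.35 and 12.32) and Col4a1 (12.19, 12.12 and 12.03), of which vkg and Col4a1 are chains of collagen IV, were among the 300. So was atilla, a surface protein known as a lamellocyte marker, with 12.10, 12.41 and 12.47. These matrix genes are known to be made by fat body as well as by blood cells. The phagocytic receptor NimC2 (5.45, 5.34 and 5.33), the crystal cell regulator lz (4.29, 4.24 and 4.17) and the lamellocyte enzyme PPO3 (4.38, 4.33 and 4.40) were in the bottom quartile, as was the receptor eater, with 5.21, 5.69 and 5.70.

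Neuronal genes were in the middle: 0 of 23 reached the 300 and 3 were in the bottom quartile, with a median of 9.21. Gad1, which makes the transmitter GABA, read 10.99, 11.38 and 11.32. The synaptic proteins cpx (complexin) and Snap25 read 10.64, 11.05 and 11.19, and 10.38, 10.86 and 10.71. The 3 dim members all concern a transmitter: VGlut, the glutamate vesicle transporter (5.74, 5.77 and 5.66), DAT, the dopamine transporter (4.73, 5.42 and 5.40), and ple, tyrosine hydroxylase of dopamine synthesis (3.81, 3.92 and 3.98). Each of these was read by the brightest named probe set, and ple had 1.

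Neuropeptide genes were also mostly in the middle, with 2 of 34 in the 300. Nplp4 (13.58, 13.78 and 13.75) and Nplp2 (13.65, 13.69 and 13.71), both neuropeptide-like precursors, held ranks 43 and 46. The next, Ms, the precursor of myosuppressin, was at rank 1035 with 10.13, 10.37 and 10.30. Ilp7, Ilp8 and Ilp5, insulin-like peptides, and amn, a neuropeptide gene of memory, had means in the bottom quartile. Of the 4 insulin-like genes measured, Ilp2 was the exception at 8.52, 8.54 and 8.53.

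Excretory tubule genes had 0 of 17 members in the 300 and 1 in the bottom quartile, with a median of 9.01. The potassium channel Irk2 read 10.25, 10.41 and 10.29, and ry, xanthine dehydrogenase of purine breakdown, 5.99, 6.07 and 5.99. Among detoxifying families, GstD1, a glutathione S-transferase, was the 1 member in the 300 of 34, with 12.36, 12.29 and 12.32. None of the 82 cytochrome P450 genes and none of the 35 UDP-glycosyltransferase genes reached it. Of all ranked genes 2.50% were in the 300, so counts this low in lists of this size say little about these lists. The brightest P450, Cyp6a2, read 11.06, 11.21 and 11.05. In the bottom quartile were 18 P450 genes (22.0%), near the 25% of all genes.

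Odorant-binding proteins, a secreted family found in chemosensory organs and in other tissues, covered nearly the whole scale. Of 47, 2 were in the 300 and 18 in the bottom quartile. Obp44a read 12.45, 12.91 and 12.94 and Obp99a 11.65, 12.15 and 11.89. Obp56f, with 3.59, 3.57 and 3.63, was the second dimmest of all genes ranked. Obp56a, at rank 498, differed between arrays, with 12.53, 10.72 and 10.53.

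**Figure D3:**
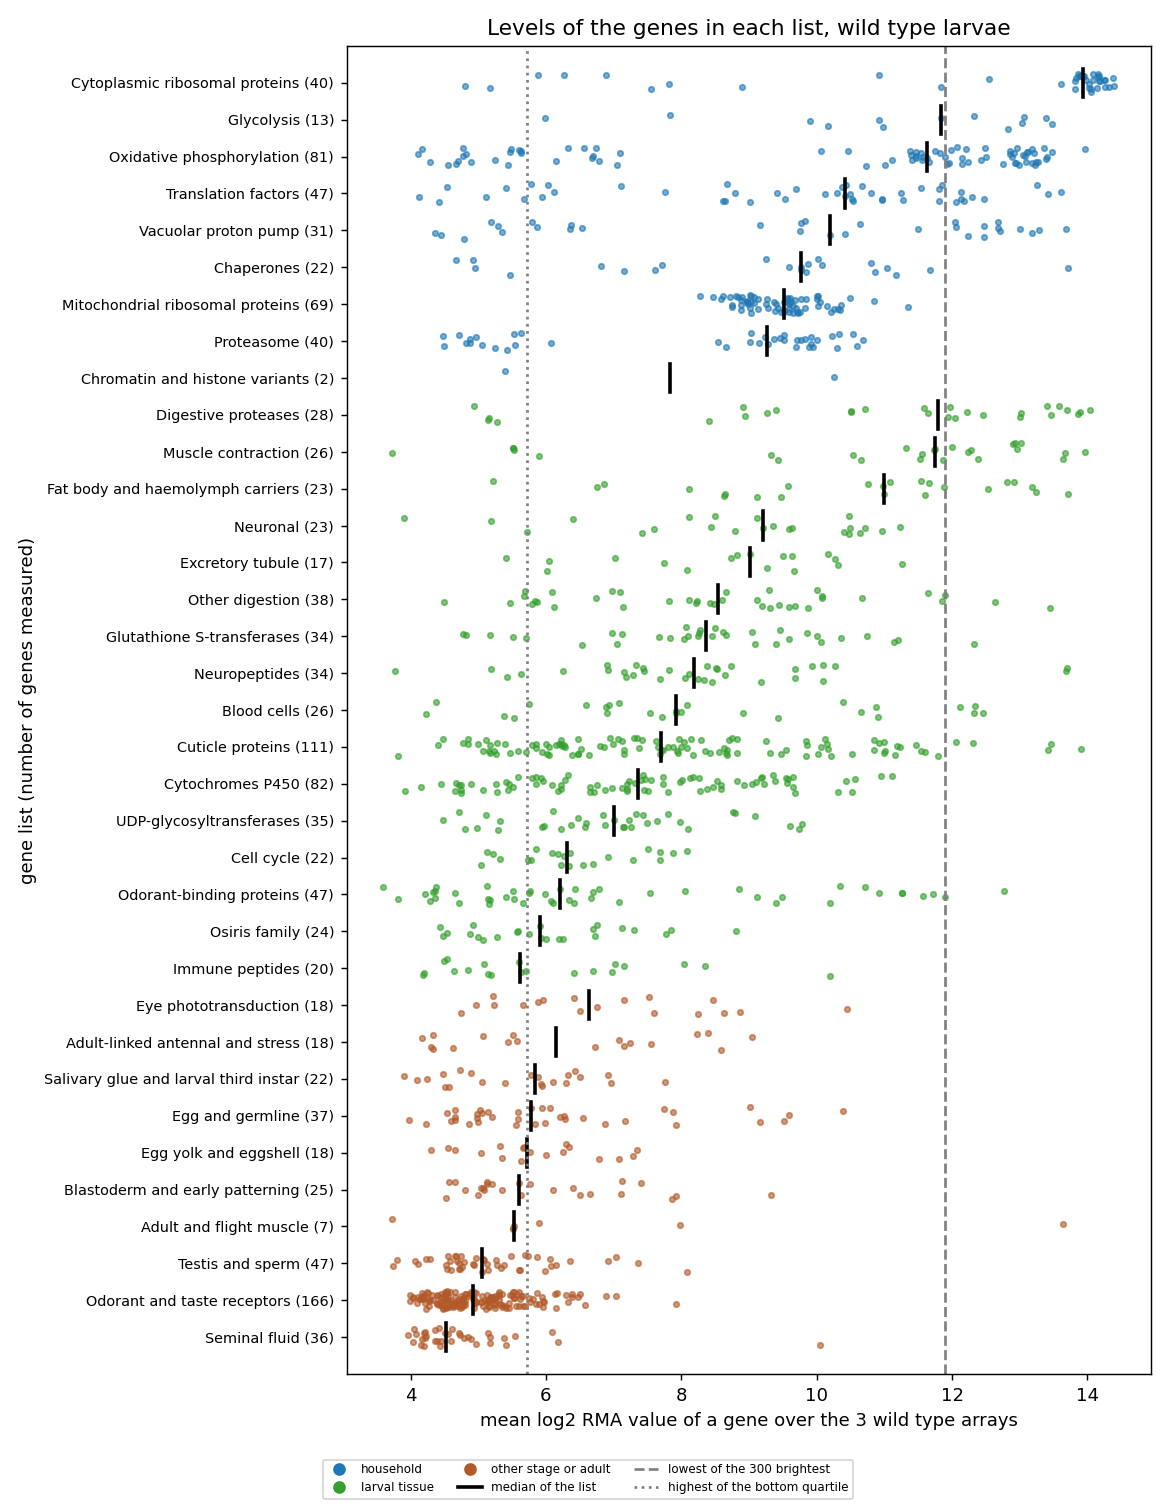
Each point is 1 gene at its mean log2 RMA value over the 3 wild type arrays, in 1 row per gene list, with a bar at the list's median, a dashed line at the lowest of the 300 brightest genes and a dotted line at the highest of the bottom quartile. Of the ribosomal proteins 30 of 40 lie at or right of the dashed line, and of the seminal fluid genes 33 of 36 lie at or left of the dotted line.

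The cuticle list differed most between the arrays, though the differing genes were not confined to it. By the mean, 5 of 111 were in the 300 and 19 in the bottom quartile. The list median was 9.51 on replicate 1, 6.82 on replicate 2 and 6.90 on replicate 3. Of the 111 genes, 53 were over 2-fold higher on replicate 1 than on the mean of the other arrays. Over all ranked genes, 303 of 11982 were. On replicate 1 alone 13 cuticle genes were in the 300, and on each of the others 5. Without replicate 1, 5 were in the 300 and 28 in the bottom quartile.

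**Figure D4:**
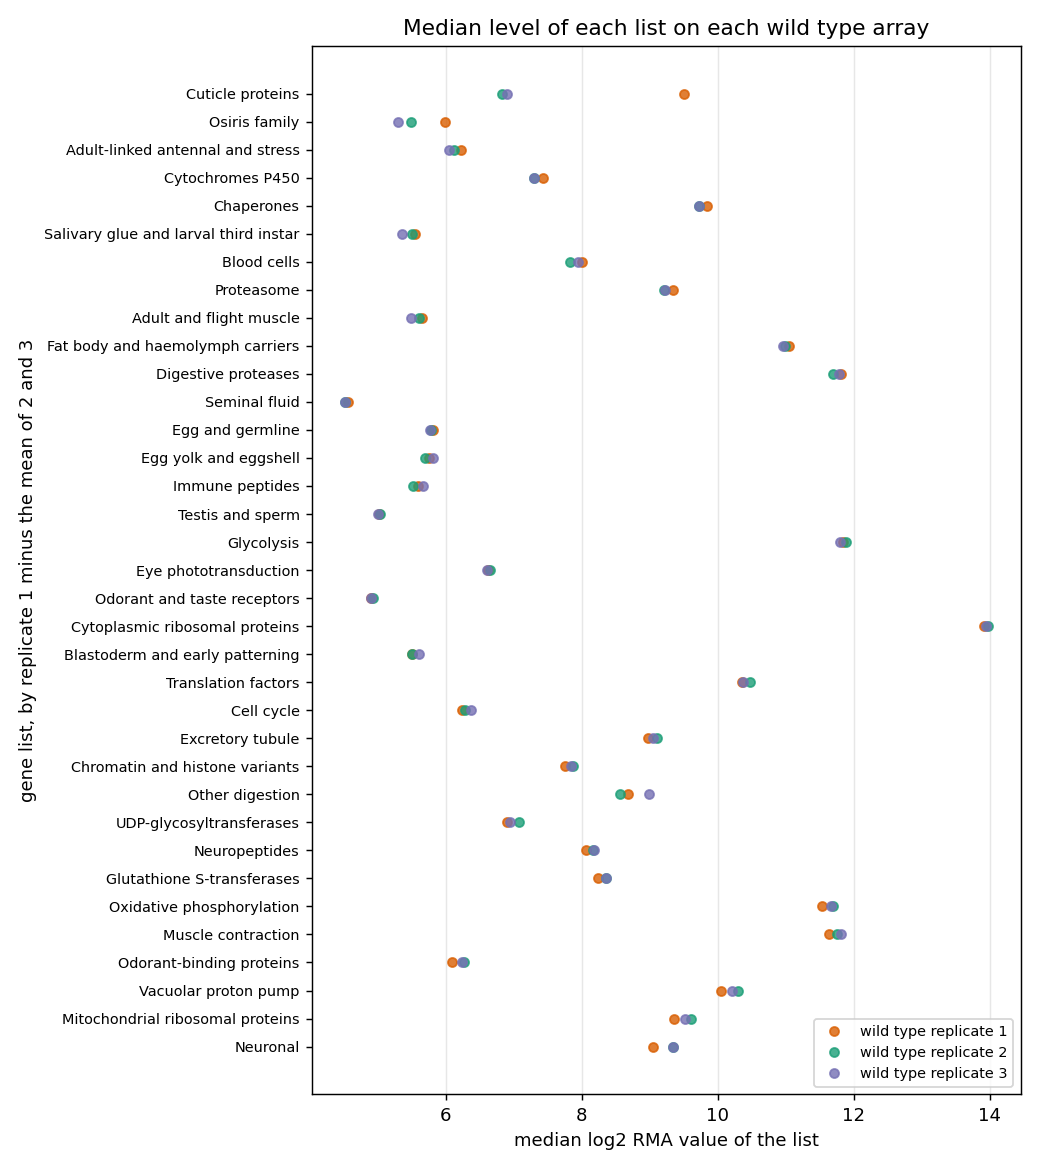
Median log2 RMA value of each gene list on each wild type array, with lists ordered by replicate 1 minus the mean of replicates 2 and 3. The cuticle list stands at 9.51 on replicate 1 against 6.82 and 6.90 on replicates 2 and 3.

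A few cuticle genes were bright on every array. Lcp65Ag3, a larval cuticle protein, read 13.87, 13.85 and 13.99. TwdlN, of the Tweedle family of cuticle proteins, read 13.56, 13.40 and 13.43, and Cpr47Eg, a chitin-binding cuticle protein, 13.70, 13.27 and 13.29. Cpr67B read 12.07, 12.31 and 12.56. These 4 do not follow the list: none was over 2-fold higher on replicate 1.

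Others were bright on replicate 1 alone. TwdlM read 13.92, 7.36 and 7.35, which put it at rank 26 on replicate 1 and at 6180 and 6136 on the other arrays. TwdlB read 13.00, 6.58 and 6.87, and Lcp65Af 12.49, 5.19 and 5.21. Their places by the mean, 1837, 3066 and 5587, describe none of the arrays. Of the 31 genes in the 300 of replicate 1 alone, 10 were of the cuticle or Osiris lists, 20 exceeded their mean on replicates 2 and 3 by over 2-fold, and 27 were outside the 300 by the mean. Of the 25 genes in the 300 of both other arrays but not of replicate 1, 1 was of those lists.

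The Osiris genes, a clustered family known for its part in cuticle formation, followed the same arrays. Osi6 read 12.48, 4.82 and 4.58, Osi15 10.84, 4.62 and 4.63, and Osi20 10.95, 6.34 and 6.26. All 3 were high on replicate 1 and dim on the others. Of 24 members 8 were over 2-fold higher on replicate 1, 10 were in the bottom quartile by the mean, and 16 were there without replicate 1. Osi12, at 4.52, 4.40 and 4.37, was dim on each array.

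Cell cycle and replication genes had a median of 6.30, below the 7.44 of all ranked genes, and 5 of 22 lay above that gene median. In the 300 were 0 and in the bottom quartile 4 (18.2%), against 2.50% and 25% of all genes. These 2 counts do not set the list apart as dim. The helicase subunit Mcm6 read 8.06, 8.06 and 8.13 and PCNA, the clamp of DNA polymerase, 8.02, 7.84 and 7.79. CycE, the cyclin of S phase entry, read 4.82, 5.13 and 5.16. Of the antimicrobial and Bomanin peptides, 12 of 20 were in the bottom quartile. BomS6 was the brightest, with values between 9.97 and 10.61. Drs (drosomycin, an antifungal peptide) read 7.35, 7.49 and 9.27, with replicate 3 above the others.

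Most genes best known from adults, late larvae, embryos or gonads were at the lower end, but the lists differed. The 10 lists of that class held 392 genes, of which 279 (71.2%) were in the bottom quartile and 1 (Mlp60A) in the 300, with a median of 5.13. The chemoreceptor, seminal fluid and testis lists had 143, 33 and 36 genes in the bottom quartile, so they carry most of that count. In the remaining lists the share ran from 27.8% (eye) to 57.1% (adult and flight muscle). Over all genes the bottom quartile is 25% by construction. For the lists of larval tissues the counts were 118 (20.0%) and 47 (7.97%) of 590.

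Chemoreceptors, which detect odours and tastes, were the largest of these lists. Of 166, 143 (86.1%) were in the bottom quartile and 0 in the 300. By family the bottom quartile took 52 of 56 odorant receptors, 50 of 56 gustatory receptors and 41 of 53 ionotropic receptors. The highest was Ir76a at 7.85, 7.96 and 7.94, and Gr36a (from 3.95 to 4.01) and Or67d, a receptor for the male pheromone cVA (4.16, 3.90 and 3.92), were the lowest. Larvae have olfactory and taste neurons, but few of them, and a dim probe set here does not show that a receptor is unused.

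Male reproductive genes were dim in nearly all cases. Of 36 seminal fluid genes 33 (91.7%) were in the bottom quartile. SP, the sex peptide, and the accessory gland genes Acp98AB (4.11, 4.05 and 4.09) and Acp53Ea (4.12, 3.95 and 4.04) were there. The 3 others were EbpIII, a protein of the ejaculatory bulb, with 11.42, 9.22 and 9.50, higher on replicate 1, and Acp95EF and Acp62F, with means of 6.19 and 6.09. Of 47 testis and sperm genes 36 (76.6%) were in the bottom quartile. The sperm tail protein dj read 3.71, 3.91 and 3.76, the protamines ProtA and ProtB 4.27, 4.19 and 4.22, and 4.15, 4.04 and 3.99. Mst85C was the brightest, with 7.74, 8.30 and 8.23.

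Female genes were less uniform. The yolk proteins, which the adult female makes for the egg, read 4.54, 4.55 and 4.87 for Yp1, 5.77, 5.74 and 5.79 for Yp2, and 4.98, 5.10 and 5.04 for Yp3. The eggshell proteins Vm34Ca (7.49, 7.32 and 7.23) and Vm26Aa (7.29, 7.33 and 7.22) stood near the median of all genes. In all, 9 of 18 yolk and eggshell genes were in the bottom quartile. Of 37 genes of oogenesis, maternal supply and the piRNA pathway 18 were there, among them orb (3.83, 4.01 and 4.11) and otu (4.20, 4.13 and 4.35), both of egg chamber development. The brightest of the list were gus, with 10.30, 10.47 and 10.41, tud, with 9.78, 9.62 and 9.38, and me31B, an RNA helicase of storage granules, with 9.54, 9.61 and 9.40.

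Genes of the embryo's early patterning had 14 of 25 members in the bottom quartile. The maternal determinants bcd (5.13, 4.92 and 4.94) and osk (4.74, 4.58 and 4.67) were there. The brightest was cad, also known from the gut, with 9.12, 9.48 and 9.39, and next were sna (7.64, 8.10 and 8.04) and odd (7.91, 7.80 and 7.89).

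Genes that mark the last larval instar were dim, with 10 of 22 in the bottom quartile and 0 in the 300. Lsp2, a larval serum protein that late larvae store in bulk, read 6.37, 6.49 and 6.43. The salivary glue genes Sgs3, Sgs4 and Sgs5 read 5.94, 5.62 and 6.27, then 6.19, 6.19 and 6.53, and 6.25, 6.26 and 6.45. Of the 9 Eig71E genes, induced by ecdysone in late larvae, 8 were in the bottom quartile. The 4 ng genes, of salivary glands, differed between arrays, with ng1 at 9.84, 5.68 and 5.38 and ng3 at 9.97, 6.74 and 6.57. All 4 were high on replicate 1.

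The eye list was mixed, with 5 of 18 (27.8%) in the bottom quartile, near the 25% of all genes. The light-gated channel trp read 5.12, 4.87 and 4.92 and chp, chaoptin of photoreceptor membranes, 4.74, 4.78 and 4.71. The lipid transfer protein rdgB read 10.40, 10.50 and 10.45. Of 18 mixed genes best known from adults or pupae, 9 were in the bottom quartile, including dsx, the switch of somatic sex (4.08, 4.17 and 4.27), and the odorant-binding protein lush (4.23, 4.38 and 4.40). Ddc, which acts in cuticle hardening and pigment, was higher on replicate 1, with 9.43, 8.21 and 8.12.

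The 10 dimmest genes had array values from 3.50 to 3.83. CG17177 came last with a mean of 3.56. Obp56f at 3.60 and grim, an activator of cell death, at 3.64 were next above it. Mst27D, a male-specific transcript, and TpnC4 were among the 10.

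Of the 300, 141 genes belonged to a list and 159 to none. Names of the CG or CR kind, given to genes with no other name, made up 75 of the 300 (25%), 1730 of the bottom quartile (57.8%) and 43.6% of all ranked genes. Among the 40 brightest, CG7714, CG12310, CG14302 and CG14265 carry such names. CG7714 was the brightest ranked gene outside the ribosome, at rank 17 with 14.00, 14.06 and 14.05. The largest difference between arrays in the 300 was that of CG10953, with 13.66, 12.41 and 12.48.

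Position in the genome gave a few descriptive features. Chromosome arms 2L, 2R, 3L and 3R placed 65, 65, 64 and 70 genes in the 300, or 2.95%, 2.68%, 2.73% and 2.35% of their ranked genes, and X placed 32, or 1.71%. Chromosome 4, the small chromosome that the protein of the Pof gene is known to bind, placed 3 of 65 (4.62%): ATPsynbeta, apolpp, the precursor of the main haemolymph lipoprotein, and bt, the giant muscle protein projectin. A gene of the 300 had another as its neighbour in 53 of 299 cases (17.7%), and of all genes placed 4.89% had such a neighbour, with tandem copies of a family counted as they stand. There were 4 runs of 3 or more neighbours: the trypsins thetaTry, alphaTry, epsilonTry and betaTry, the Jonah genes Jon25Biii, Jon25Bii and Jon25Bi, and the sets CG5084, CG10910 and CG5773, and CG7714, CG7715 and CG14302.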

How the data were processed

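RNA of whole larvae was extracted with TRIzol and an RNeasy kit, biotin-labelled and hybridised to Affymetrix arrays. The authors deposited log2 values; the submitters' processing notes name RMA, with no version. Of 18952 probe sets, 183 controls were left out. Of the other 18769, 13647 carried 1 gene symbol, 402 several and 4720 none, and only the first were ranked. Symbols were updated through the gene ID in the Release 6 plus ISO1 MT reference table, where 13544 IDs matched. A gene took its brightest probe set by the mean of 3 arrays.

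The 35 lists were defined by name, and the pairs and copies were entered as a list. Members and lists were chosen with earlier results of these data known. RpL24-like, qm, wdp, Cp190, Acp65Aa, Sgsh, Cyp1 and DIP1 were left out as wrong matches after their values were seen; RpL24-like and Cyp1 were in the 300. The text names the 40 brightest genes, the 4 brightest and dimmest of each list, genes at the borders, those with the largest ranges and members of named pairs; other genes were picked after their values were seen. Columns of the 3 mutant arrays were not used. Python 3.11.15, pandas 2.3.3 and numpy 2.4.6 were used, and the ranking code was tested on simulated data. Only 3 arrays limit the precision.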

Additional observations from a re-analysis of the deposited data

How the results depend on the processing

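Without probe sets that can bind several transcripts (suffixes _s, _x and _a, on which 119 of the 300 rest), 186 of the 300 remained. The 300 then held 14 ribosomal, 7 proton pump, 3 muscle and 9 cuticle genes; these probe sets were dropped from the ranking, so genes read by them alone were lost. A cut at 500 genes, scaled to 300, gave 18.6 ribosomal and 7.8 pump genes. With the quartile taken over all probe sets, 1817 of the 2995 genes remained in it, with 10 oxidative phosphorylation and 8 proteasome genes. With the lowest 50%, scaled to 25%, the counts were 7 proteasome, 82.5 chemoreceptor, 17.5 seminal fluid and 23 testis genes, and with the lowest 10% 60 seminal fluid genes. Leaving out 1 array in turn kept 294 to 297 of the 300 and 2927 to 2953 of the bottom quartile. Without replicate 1, the bottom quartile held 16 Osiris genes in place of 10 and 2 genes of other digestion in place of 4; no other list count moved by over 1.5 times with 1 array left out. No paired analysis was possible because only 1 group was used and no test was made. The 95 probe sets without a symbol and the 15 with several that lie at or above the border of the 300 were not ranked.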

Other observations

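Among the 84 genes of the 300 that have a name and fall in no list, several belong to nitrogen and central metabolism; they were picked after their values were seen. Gs2 and Gs1, glutamine synthetases, held ranks 156 and 238, Gdh, glutamate dehydrogenase, rank 153, and Odc1, which makes polyamines, rank 256. Oda (ornithine decarboxylase antizyme) held rank 150, with 12.46, 12.80 and 12.99. Mdh1, Men, Idh3a and mAcon1, enzymes of or near the citric acid cycle, held ranks 138, 281, 166 and 206, and AcCoAS, which makes acetyl-CoA, rank 154. The mitochondrial phosphate carrier Mpcp2 held rank 52, and porin, the channel of the outer mitochondrial membrane, rank 187. The metallothionein MtnA, which binds metals, held rank 47, and Rack1, a scaffold protein bound to the ribosome, rank 41.

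Mucins, the secreted glycoproteins that coat epithelia, spread over the scale. Of 13 genes named Muc with a cytological position, 4 were in the 300 and 5 in the bottom quartile. Muc26B read 13.38, 13.36 and 13.25, and Muc96D 13.67, 13.08 and 13.02, while Muc14A read 3.89, 4.01 and 3.92. Muc91C was high on replicate 1, with 10.20, 7.73 and 7.98, and Muc55B low on it, with 10.52, 11.12 and 11.37. Pickpocket channels, known from touch and taste neurons, were low: ppk26 was the highest, with 7.69, 7.92 and 8.04, and ppk itself, of the larval pain neurons, read 4.78, 5.35 and 5.43, lowest on replicate 1.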
